A study of Bos taurus with 6 samples.

Results

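Genes of mitochondrial protein import were examined in bovine blastocysts. The rule that picks them uses gene names and no measured value, and they comprise the numbered translocases of the outer membrane (TOMM) and inner membrane (TIMM), SAMM50, the metaxins MTX1, MTX2 and MTX3, PAM16, GRPEL1, GRPEL2, both subunits of the processing peptidase (PMPCA and PMPCB), CHCHD4, GFER and OXA1L. In all, 35 of the 36075 genes in the table matched, among 20337 with a symbol. RNA was sequenced in 3 control and 3 MT-treated libraries, where MT is melatonin. Values after MT below are those of the MT-treated libraries. Per the study's methods, oocytes from slaughterhouse ovaries were matured for 22 h in medium with 1e-07 mol/L MT or with none, no MT is named for the fertilisation and culture that followed, each library held a pool of 3 blastocysts, and the 3 libraries of a group came from 3 separate in vitro production runs. Neither the age of the cows nor the sex of the embryos is given in the sources used here.

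Almost all mitochondrial proteins are made in the cytosol and must be carried into the organelle. The TOM complex is the common entry gate in the outer membrane, and the SAM complex inserts barrel-shaped proteins into that membrane. Small TIM chaperones escort hydrophobic proteins across the intermembrane space, the TIM22 complex inserts carriers into the inner membrane, and the TIM23 complex with its motor draws proteins with a presequence into the matrix, where the processing peptidase removes the presequence. CHCHD4 and GFER form a relay that folds intermembrane space proteins by adding disulfide bonds, and OXA1L inserts proteins into the inner membrane from the matrix side. A blastocyst depends on this supply as its mitochondria mature and respiration increases.

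The libraries of both groups differed in how many genes were detected. Between 8854 and 8953 genes were above 0 in the control libraries and between 14372 and 14408 in the MT-treated libraries. Of the 35 import genes, 29 or 30 were above 0 in a control library and 34 in each MT-treated library. Values are TPM, which divide reads by gene length and by the library total. TPM keeps no read counts, so no depth can be read from the values and no counting interval is given. The sequencing depth that the study tabulates elsewhere was not used here. Of 10 markers of blastocyst cells, 9 were matched by symbol. All 9 exceeded 1 TPM in the MT-treated group and 5 did so in the control group, where CDX2 and NANOG were listed at 0 in every library, SOX2 reached 0.02 TPM and GATA6 lay between 0.20 and 0.44 TPM. The summed level of the 9 markers was 11498 to 11844 TPM in control and 10674 to 11031 TPM after MT, nearly all of it from the keratins KRT8 and KRT18. Of 8 markers of cumulus and granulosa cells, 7 were matched, and their sum was 17.2 to 19.2 TPM in control and 15.0 to 17.1 TPM after MT. That sum came from FSHR, apart from 0.01 TPM of CYP19A1 in 1 MT-treated library, and the other 5 were listed at 0 throughout. A listing at 0 may mean that a transcript was absent, was not captured or was not counted when the table was made, and these cannot be told apart here. Genes that most cells use, such as YME1L1 and COX18, were also listed at 0 in every control library, so a rise from 0 below describes the listed values. The part of the detection difference and of these markers in the results was not tested. In whole blastocysts, fewer cells of a type and less RNA per cell cannot be told apart.

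The import genes summed to a higher level in MT-treated blastocysts, while single subunits moved in opposite directions. The 35 genes together made up 0.5% ± 0.00111 of the listed TPM in control and 0.579% ± 0.00313 after MT (SD, n = 3 each). Their sum was 4696, 4682 and 4673 TPM in control and 5324, 5282 and 5266 TPM after MT. The MT-treated sums were all above the control sums, by 1.13-fold in the mean. The difference of 607 TPM was 992 TPM after quantile normalization. A sum weighs abundant genes most, so it does not describe the import genes one by one. In mean TPM the largest rises were in TOMM6 (641 to 990), TIMM50 (42.5 to 191), TIMM23 (175 to 282) and TOMM5 (866 to 967). The largest falls were in GRPEL1 (214 to 111) and TIMM8B (414 to 315). Relative to its control level, TIMM22 fell most, and OXA1L, TOMM20L, TIMM21, TIMM29 and TOMM40L were at 0 or under 1 TPM in control and above 9 TPM after MT.

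Differences were tested with limma on log2(TPM + 1) across the 11953 genes that reached 1 TPM in 3 or more libraries, with Benjamini-Hochberg adjustment over all of them, and a gene was called at an adjusted p-value under 0.05. Of the 35 import genes, 33 were tested. MTX3 was listed at 0 in all 6 libraries. PAM16, a subunit of the import motor, had 0, 0 and 0.10 TPM in control and 0.26, 0.54 and 0.12 TPM after MT, below the level for testing. It overlaps GLIS2, which had 6.78 to 7.09 TPM in control and 0.36 to 0.52 TPM after MT. Of the 33 tested genes, 16 were higher in MT-treated blastocysts (48.5%), against 61.6% of all genes tested, and 14 were lower (42.4%), against 34.1%. OXA1L, TIMM21, TIMM29, TOMM20L and TOMM40L passed the filter through the MT-treated libraries alone, so their rise follows from the filter, as it does for the genes at 0 in control among all those tested. Over genes that reached 1 TPM in every library, 11 of 28 import genes were higher (39.3%, against 36.4% of 5988 genes) and 14 were lower (50.0%, against 55.6%). Among calls with a log2 fold change of 1 or more in size, 8 were higher (24.2%, against 51.0% of all genes tested) and 1 was lower (3.03%, against 19.6%). Over genes that reached 1 TPM in every library, 3 were higher by that much (10.7%, against 15.7%) and 1 was lower (3.57%, against 27.2%). The groups did not overlap for 30 of the 33 (90.9%), against 96.1% of all genes tested. Being called or lying apart was therefore the usual state of a gene in this comparison. An exact permutation test (two-sided) over 3 and 3 libraries has 0.1 as its smallest p-value.

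**Figure D1:**
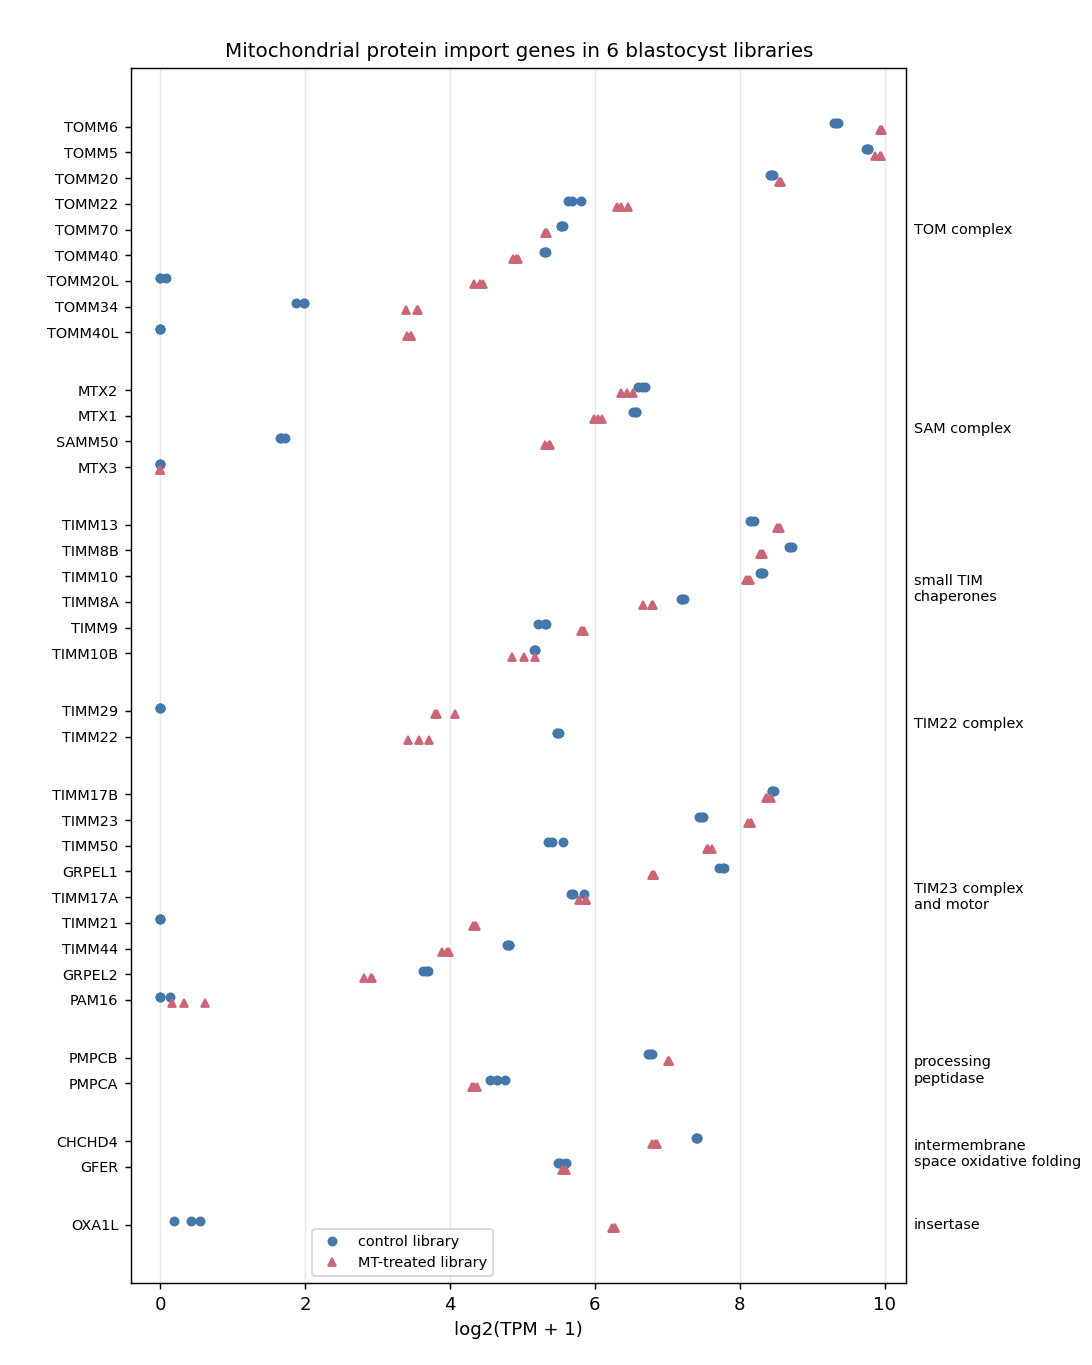
Level of each import gene in each library, as log2(TPM + 1) on the horizontal axis, with the genes in 8 groups by role. Circles are the 3 control libraries and triangles the 3 MT-treated libraries. Libraries of a group lie close together, and the widest gaps are in OXA1L, TOMM20L, TIMM21, TIMM29, SAMM50 and TOMM40L, which sit under 3 TPM in control and between 9.65 and 76.6 TPM after MT.

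The distance between the groups was moderate for most import genes. Over the 33 tested genes, the median log2 fold change was 0.11 and its median size 0.54, against 1.12 and 1.98 over all genes tested. Over the genes that reached 1 TPM in every library, the median was -0.11 and the median size 0.43 for 28 import genes, against -0.27 and 0.83 for 5988 genes. These shares and medians are descriptions of a list of related genes and were not tested against other lists.

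**Figure D2:**
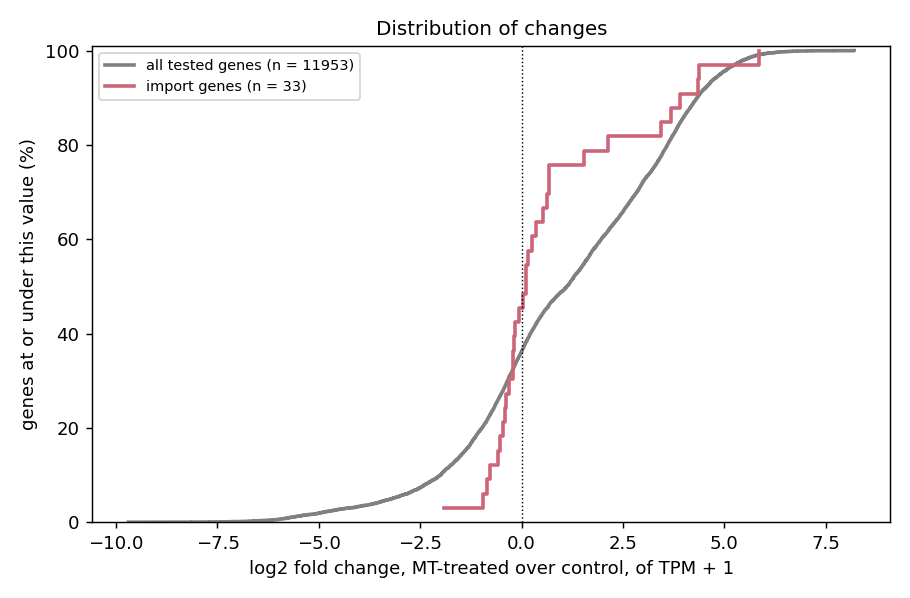
Cumulative share of genes (vertical axis, %) at or under each log2 fold change of TPM + 1, MT-treated over control (horizontal axis). The line of the 33 import genes is steeper around 0 than the line of all 11953 genes tested, with medians of 0.11 and 1.12, and both lines include genes listed at 0 in control, whose fitted values depend on the pseudocount.

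The directions of small differences depended on how libraries were scaled. Genes present in all 6 libraries had a lower median in the MT-treated libraries, by -0.48 on the log2 scale. Centring on that median left 26 import genes higher and 5 lower, so 83.9% of the called genes were then higher, in place of 53.3%. Over all genes tested, that share went from 64.4% to 73.5%. Quantile normalization, which forces the values of all libraries into a single distribution, left 19 higher and 11 lower, or 63.3% higher, against 59.0% over all genes tested. Centring adds the same amount to every gene, so it can undo small falls and no rise. Over genes that reached 1 TPM in every library, 10 of 11 called rises were called in the same direction under both scalings (90.9%, against 77.7% of the rises of all such genes), with TOMM34 as the exception. Of the 14 called falls, 5 were (35.7%, against 69.4%), namely TIMM22, TIMM44, GRPEL1, GRPEL2 and CHCHD4. The other 9 falls, in MTX1, MTX2, PMPCA, TIMM10, TIMM17B, TIMM8A, TIMM8B, TOMM40 and TOMM70, turned or were lost under at least 1 of them.

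**Figure D3:**
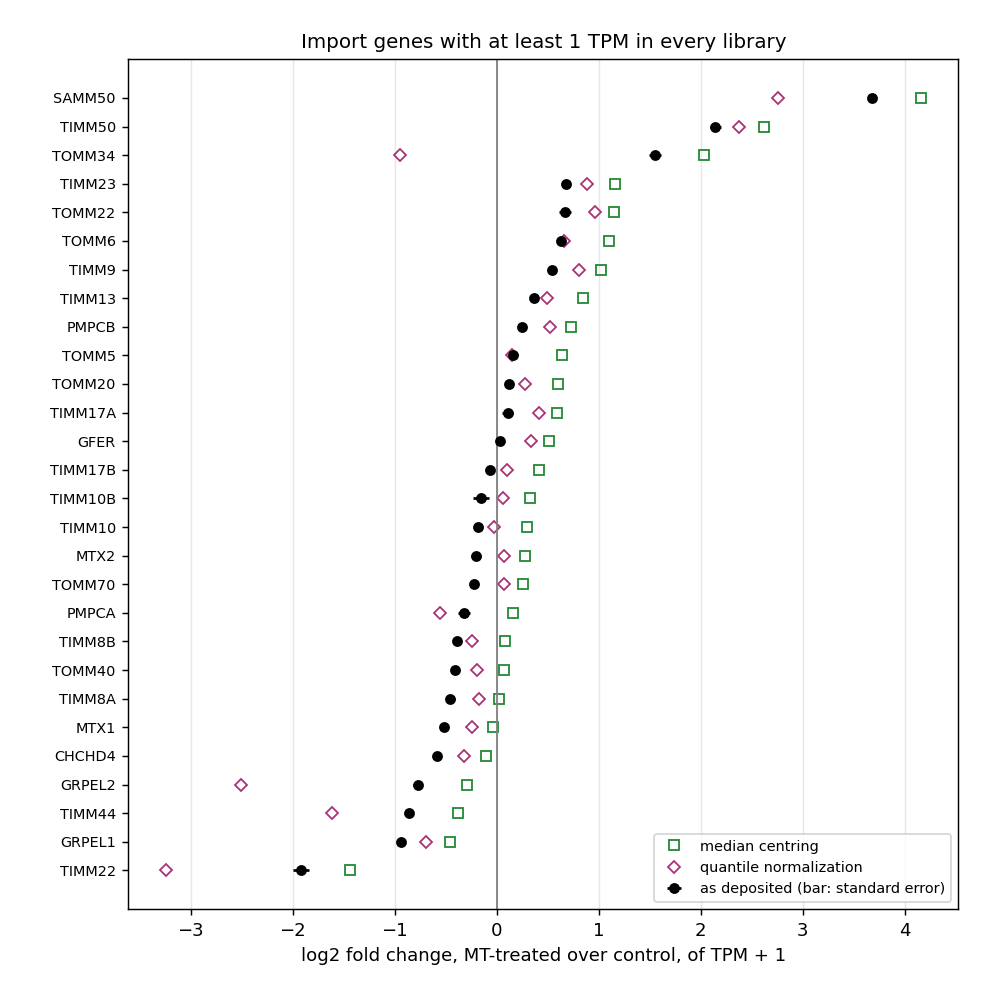
Log2 fold change of TPM + 1, MT-treated over control, for the 28 import genes with at least 1 TPM in every library. Filled circles are the values as deposited with their standard errors, open squares the values after median centring and open diamonds those after quantile normalization. The squares lie 0.48 to the right of the circles for every gene, and TOMM34 is at 1.55 as deposited and at -0.95 after quantile normalization.

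At the entry gate, the small subunits of the TOM complex were the most abundant import transcripts. TOMM6, which steadies the complex, had 652, 642 and 629 TPM in control and 988, 982 and 999 TPM after MT. The MT-treated values were all higher, by 1.54-fold in the mean (log2 fold change 0.63, SE 0.02, adjusted p = 6.85e-08 by limma). TOMM5, also a small subunit, had 869, 875 and 853 TPM in control and 986, 980.2 and 934 TPM after MT. It rose by 1.12-fold (adjusted p = 0.000721 by limma), so the order of both genes changed, with TOMM5 first in control and TOMM6 level with it in the MT-treated group, where their ranges overlapped. TOMM20, the receptor for presequences, rose from 344 ± 4.83 to 375 ± 4.05 TPM (SD, n = 3 each), 1.09-fold. TOMM22, the central receptor, had 48.5, 50.3 and 55.0 TPM in control and 78.2, 80.9 and 87.3 TPM after MT, a 1.6-fold rise (log2 fold change 0.67, SE 0.06, adjusted p = 5.45e-05 by limma). These 4 rises were called under both other scalings.

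The channel and the second receptor of the same complex went the other way as deposited. TOMM40, which forms the pore, had 38.4, 38.6 and 39.3 TPM in control and 28.4, 29.1 and 29.7 TPM after MT, 1.34-fold lower in the MT-treated group, but its log2 fold change of -0.41 became 0.074 after median centring and was -0.19 after quantile normalization. TOMM70, the receptor for carrier proteins, was 1.17-fold lower, with 45.7 ± 0.523 and 39.1 ± 0.445 TPM (SD, n = 3 each), and its value turned from -0.22 to 0.26 after median centring and to 0.071 after quantile normalization. After median centring the value of TOMM22 was 1.15 and after quantile normalization 0.96, above those of TOMM40 and TOMM70 under each scaling. TOMM70 overlaps LNP1, which was listed at 0 in control and had 11.8, 10.35 and 11.1 TPM after MT.

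The paralogs of TOM genes were listed at or near 0 in the control libraries. TOMM40L, a paralog of the channel, was listed at 0 in each control library and had 10.1, 9.65 and 9.99 TPM after MT. TOMM20L, a paralog of the receptor, had 0, 0.06 and 0 TPM in control and 19.2, 21.0 and 20.3 TPM after MT. In the RefSeq annotation TOMM20L overlaps TIMM9, and the sources used here do not say whether counting used strand, so reads of both genes may not be told apart. TOMM40L overlaps NR1I3, which was listed at 0 in all 6 libraries. TOMM34 encodes a cytosolic co-chaperone of precursors despite its name. It had 2.95, 2.98 and 2.68 TPM in control and 10.7, 9.51 and 10.8 TPM after MT, 3.61-fold higher (log2 fold change 1.55, SE 0.06, adjusted p = 6.63e-07 by limma), but it was lower after quantile normalization (-0.95). The summed TPM of the 9 TOM genes, with TOMM34 counted in, was 1989.8 ± 18.7 in control and 2522 ± 19.0 after MT (SD, n = 3 each), 1.27-fold higher.

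In the SAM complex, the barrel SAMM50 rose from a low level while, in the values as deposited, its metaxin partners were lower. SAMM50, which inserts barrel proteins into the outer membrane, had 2.30, 2.14 and 2.17 TPM in control and 40.5, 38.9 and 40.4 TPM after MT. That is 18.1-fold higher (log2 fold change 3.68, SE 0.04, adjusted p = 1.24e-09 by limma), and it was called under every alternative tried. MTX1 had 94.3, 91.4 and 94.1 TPM in control and 67.3, 64.9 and 62.4 TPM after MT, with a log2 fold change of -0.52 as deposited and -0.04, not called, after median centring. MTX2 had 99.3 ± 3.38 TPM in control and 86.1 ± 4.70 TPM after MT (SD, n = 3 each), lower as deposited but higher by 0.27 on the log2 scale after median centring and by 0.072 after quantile normalization. SAMM50 made up 2.31% ± 0.0648 of the TPM of SAMM50 and MTX1 in control and 38.1% ± 1.01 after MT (SD, n = 3 each). A share within a library does not change with its total, though quantile normalization can move it. The summed TPM of the complex was 195 ± 2.20 in control and 191 ± 5.70 after MT (SD, n = 3 each), with overlapping values, but it was 30.6 TPM higher with no overlap after quantile normalization.

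The small TIM chaperones work as rings of alternating partners, TIMM9 with TIMM10 and TIMM8A with TIMM13. In the values as deposited, the partners moved in opposite directions. TIMM9 had 38.8, 39.1 and 36.1 TPM in control and 55.5, 55.1 and 56.5 TPM after MT, 1.47-fold higher (log2 fold change 0.54, SE 0.04, adjusted p = 1.04e-05 by limma). TIMM10 had 309, 314 and 320.3 TPM in control and 282, 272 and 276 TPM after MT, 1.14-fold lower as deposited, with a log2 fold change of -0.18 that became 0.30 after median centring. TIMM9 also overlaps KIAA0586, which had 67.9 to 79.6 TPM in control and 5.99 to 10.6 TPM after MT. TIMM9 held 10.8% ± 0.569 of the pair in control and 16.8% ± 0.295 after MT (SD, n = 3 each).

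In the other ring, TIMM13 was higher beside lower TIMM8 genes. TIMM13 rose from 287 ± 4.93 to 369 ± 4.99 TPM (SD, n = 3 each; log2 fold change 0.36, SE 0.02, adjusted p = 2.49e-06 by limma). TIMM8A, whose human counterpart is mutated in deafness-dystonia syndrome, had 147 ± 2.02 TPM in control and 107 ± 5.79 TPM after MT (SD, n = 3 each), with a log2 fold change of -0.45 as deposited, -0.17 (called lower) after quantile normalization and 0.026 (not called) after median centring. Its paralog TIMM8B had 414 ± 5.45 and 315 ± 3.49 TPM (SD, n = 3 each), with -0.39 as deposited, -0.24 (called lower) after quantile normalization and 0.086 (called higher) after median centring. TIMM13 made up 66.2% ± 0.639 of the TPM of TIMM13 and TIMM8A in control and 77.6% ± 0.994 after MT (SD, n = 3 each), while TIMM8A made up 26.1% ± 0.507 and 25.3% ± 1.18 of the TPM of TIMM8A and TIMM8B. TIMM8B overlaps NKAPD1, which had 42.4 to 46.2 TPM in control and 7.98 to 8.78 TPM after MT. TIMM10B, which docks the ring on the TIM22 complex, was not called, with 35.1, 35.2 and 34.8 TPM in control and 35.1, 28.1 and 31.6 TPM after MT (log2 fold change -0.15, 95% interval -0.34 to 0.04, adjusted p = 0.11 by limma). Without the first MT-treated library, which overlapped control, it was called lower (-0.23, adjusted p = 0.0144 by limma). Without the second MT-treated library its value was -0.070 and not called (adjusted p = 0.234 by limma). After median centring it was called higher (0.33), and after quantile normalization it was not called (0.065). The sum of the 6 chaperones was 1235 ± 5.44 TPM in control and 1155 ± 11.5 TPM after MT (SD, n = 3 each), lower as deposited and higher after quantile normalization, by 56.5 TPM.

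Of both genes of the TIM22 complex, TIMM22 was lower, and TIMM29 was listed only after MT. TIMM22, which forms the insertion channel for carriers, had 44.4, 43.7 and 43.4 TPM in control and 10.9, 9.71 and 12.2 TPM after MT. It was 4.02-fold lower in the MT-treated group (log2 fold change -1.92, SE 0.08, adjusted p = 6.33e-07 by limma), the only import gene that fell by at least 2-fold as deposited. TIMM29, an accessory subunit that stabilises the complex, was listed at 0 in each control library and had 12.9, 15.9 and 13.1 TPM after MT. Within the pair, which was chosen after its values were seen, TIMM22 held 43.9% ± 5.28 of the TPM after MT (SD, n = 3). With TIMM29 listed at 0, the control share of TIMM22 is fixed at the whole. The sum of both genes was 43.8 ± 0.497 TPM in control and 24.9 ± 0.955 TPM after MT (SD, n = 3 each).

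In the TIM23 complex, the receptor TIMM50 rose most among the genes above 10 TPM in both groups. TIMM50, which receives presequence proteins from the TOM complex, had 40.1, 41.4 and 46.0 TPM in control and 189, 187 and 196 TPM after MT. That is 4.48-fold higher (log2 fold change 2.14, SE 0.05, adjusted p = 6.85e-08 by limma). TIMM23, the channel subunit, rose from 175 ± 3.48 to 282 ± 5.53 TPM (SD, n = 3 each), 1.6-fold (log2 fold change 0.68, SE 0.02, adjusted p = 2.85e-07 by limma). TIMM21, which links the complex to the respiratory chain, was listed at 0 in each control library and had 19.5, 19.4 and 19.0 TPM after MT. The rises of TIMM50 and TIMM23 were called under both other scalings.

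The channel partners of TIMM23 differed little as deposited, and both were called higher under the other scalings. TIMM17B, the more abundant of both TIMM17 genes, had 349, 349 and 355 TPM in control and 332, 329.5 and 344 TPM after MT. Its log2 fold change of -0.06 was called (adjusted p = 0.0230 by limma), was lost without the trend in the variance model (adjusted p = 0.0641 by limma), and was lost without control replicate 3, MT-treated replicate 1 or MT-treated replicate 2 (adjusted p = 0.0731, 0.0734 and 0.0671 by limma). Its value was 0.41 after median centring and 0.10 after quantile normalization. TIMM17A had 50.9, 50.0 and 56.5 TPM in control and 57.8, 57.8 and 54.2 TPM after MT and was not called (log2 fold change 0.11, 95% interval -0.03 to 0.24, adjusted p = 0.101 by limma). Without the third control library, the highest of its group, it was called higher (0.16, adjusted p = 0.0107 by limma), as it was after median centring (0.59) and quantile normalization (0.41). TIMM17A made up 13% ± 0.641 of the TPM of both TIMM17 genes in control and 14.4% ± 0.736 after MT (SD, n = 3 each), and the groups overlapped (exact permutation test, two-sided, p = 0.2, and 0.333 adjusted over 10 pairs). After quantile normalization the share was 2.63 points higher, with no overlap.

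Of the import motor, which pulls proteins into the matrix, TIMM44, GRPEL1 and GRPEL2 were lower, while PAM16 was too low to test. TIMM44, the scaffold that holds the motor at the channel, had 26.7, 27.3 and 27.2 TPM in control and 13.9, 14.9 and 14.6 TPM after MT, 1.88-fold lower in the MT-treated group (log2 fold change -0.86, SE 0.03, adjusted p = 6.62e-07 by limma). GRPEL1, the nucleotide exchange factor of the motor chaperone, had 216, 209 and 218 TPM in control and 112, 109.9 and 111 TPM after MT, 1.93-fold lower (log2 fold change -0.94, SE 0.02, adjusted p = 5.60e-08 by limma). Its paralog GRPEL2 was 1.82-fold lower, with 11.7 ± 0.311 TPM in control and 6.42 ± 0.303 TPM after MT (SD, n = 3 each). GRPEL1 made up 94.8% ± 0.206 of both GRPEL genes in control and 94.5% ± 0.291 after MT (SD, n = 3 each; exact permutation test, two-sided, p = 0.3, and 0.429 adjusted), with overlapping values, but after quantile normalization the share was 5.45 points higher with no overlap. All 3 falls were called under both other scalings, at -0.38, -0.46 and -0.29 for TIMM44, GRPEL1 and GRPEL2 after median centring and -1.62, -0.69 and -2.51 after quantile normalization. TIMM50 held 61.1% ± 1.59 of the TPM of TIMM50 and TIMM44 in control and 93% ± 0.298 after MT (SD, n = 3 each).

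**Figure D4:**
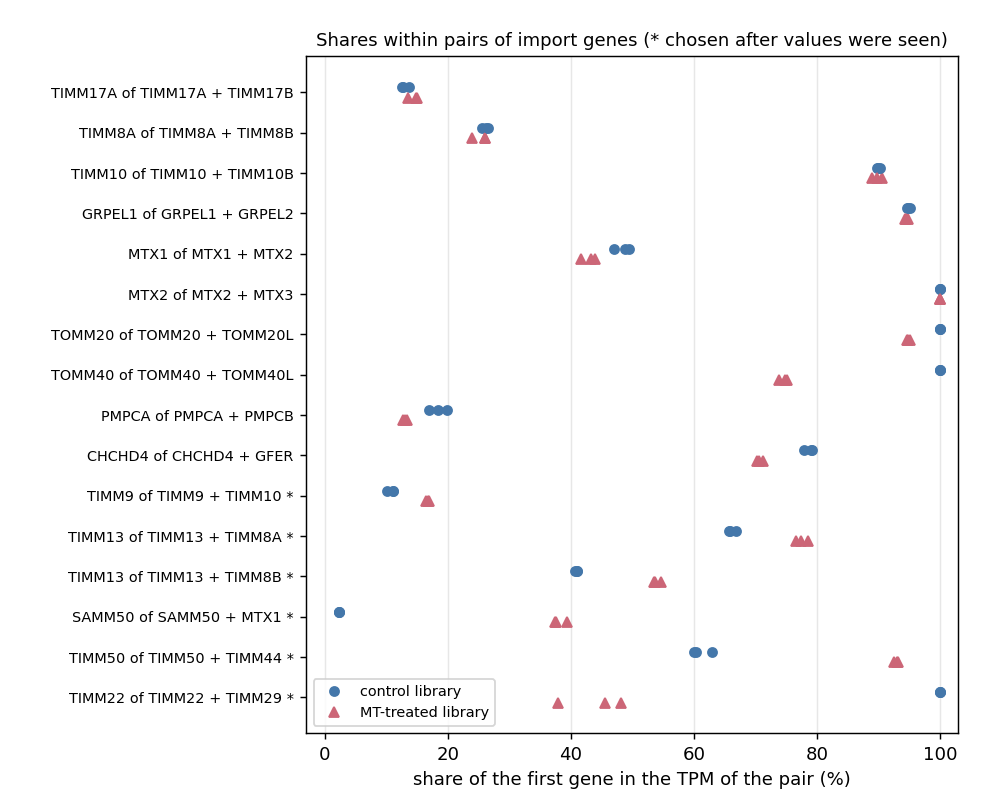
Share of the first gene in the summed TPM of a pair (horizontal axis, %) in each library, with circles for control and triangles for MT-treated libraries. Pairs with an asterisk were chosen after their values were seen. The paralog pairs of TIMM8, TIMM10, TIMM17 and GRPEL overlap between the groups in the values as deposited. SAMM50 with MTX1 and TIMM50 with TIMM44 lie far apart. So does TIMM22 with TIMM29, but TIMM29 was listed at 0 in control, which fixes that control share at the whole.

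The processing peptidase needs both of its subunits. PMPCA, which recognises the presequence, had 24.2, 22.5 and 26.1 TPM in control and 18.8, 19.2 and 19.8 TPM after MT, a log2 fold change of -0.32 (SE 0.06, adjusted p = 0.00183 by limma) that was 0.16 after median centring and -0.55 after quantile normalization. PMPCB, the catalytic subunit, rose from 108 ± 2.18 to 128 ± 0.583 TPM (SD, n = 3 each; log2 fold change 0.25, SE 0.02, adjusted p = 2.91e-05 by limma). The share of PMPCA in the pair fell from 18.4% ± 1.42 to 13% ± 0.260 (SD, n = 3 each), with no overlap between the groups.

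In the disulfide relay, CHCHD4 fell and GFER did not pass the threshold. CHCHD4, the import receptor and oxidase of the intermembrane space, had 169.9, 168 and 168 TPM in control and 115, 109.8 and 113 TPM after MT, 1.5-fold lower (log2 fold change -0.58, SE 0.02, adjusted p = 4.78e-07 by limma). It was called lower by less after median centring (-0.10) and quantile normalization (-0.32). GFER, which reoxidises CHCHD4, had 44.9, 44.1 and 47.6 TPM in control and 46.4, 45.8 and 47.6 TPM after MT, with overlapping values (log2 fold change 0.03, 95% interval -0.05 to 0.12, adjusted p = 0.380 by limma), but it was called higher after median centring (0.51) and quantile normalization (0.33). CHCHD4 made up 78.8% ± 0.739 of the pair in control and 70.7% ± 0.493 after MT (SD, n = 3 each).

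OXA1L was listed close to 0 in the control libraries. It had 0.35, 0.14 and 0.47 TPM in control and 76.6, 76.5 and 74.2 TPM after MT. No fold change is printed for a gene this close to 0, because on the log2(TPM + 1) scale it depends on the pseudocount.

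**Figure D5:**
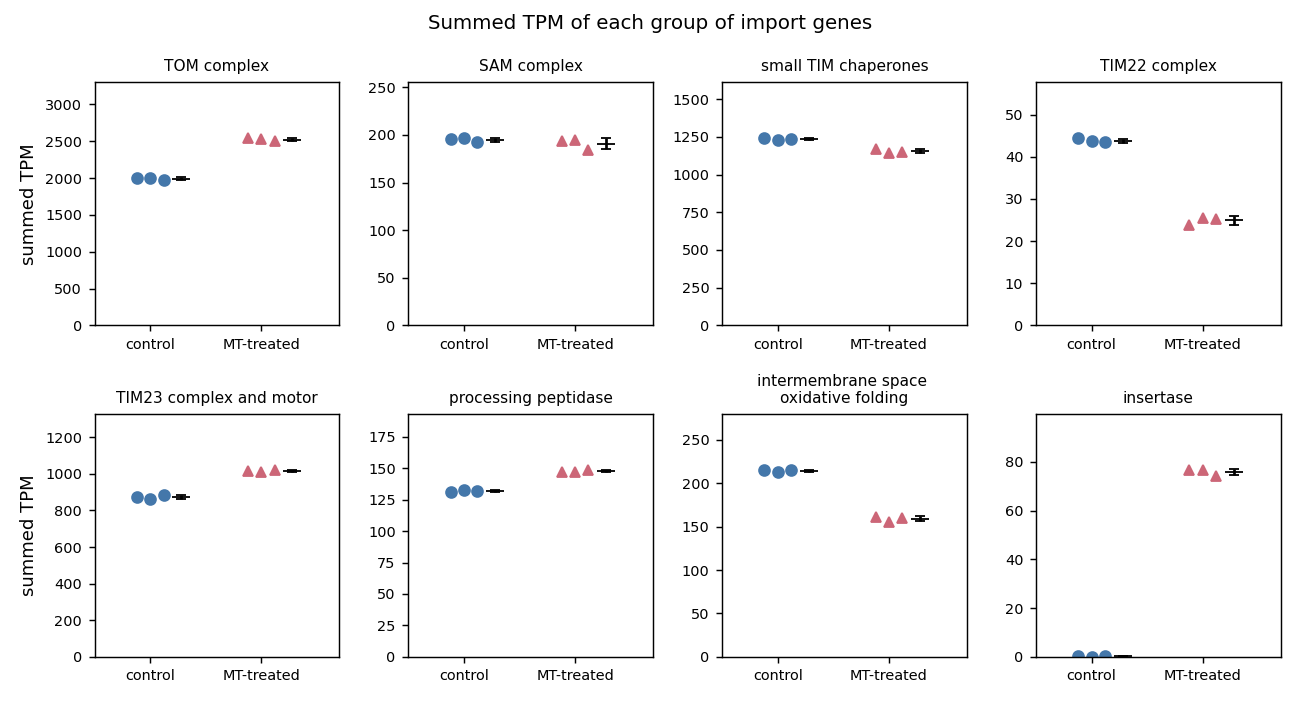
Summed TPM of each of the 8 groups of import genes (vertical axes, each from 0) in each library, with circles for control, triangles for MT-treated libraries and the mean with its SD beside them. The TOM complex (TOMM34 counted in), the TIM23 complex and motor, the processing peptidase and the insertase OXA1L are higher in all MT-treated libraries. The TIM22 complex and the disulfide relay are lower. The small TIM chaperones are lower as deposited though not after quantile normalization, and the SAM complex overlaps as deposited though not after quantile normalization. Sums were not computed after median centring, under which CHCHD4 was at -0.10 and GFER at 0.51 on the log2 scale.

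Shares within pairs were compared for 10 pairs of paralogs or partners. In 5 pairs the groups did not overlap (exact permutation test, two-sided, p = 0.1 each, the smallest value possible, and 0.2 after Benjamini-Hochberg adjustment over the 10 pairs). These were TOMM40 with TOMM40L, TOMM20 with TOMM20L, MTX1 with MTX2, PMPCA with PMPCB and CHCHD4 with GFER. Single genes lay apart in 96.1% of all cases, so a lack of overlap was common here. In TOMM40 with TOMM40L and TOMM20 with TOMM20L the second gene was listed at or near 0 in control, which fixes the control share near the whole. TOMM40 went from the whole of the pair in every control library to 74.6% ± 0.663 after MT (SD, n = 3), a change of -25.4 points as deposited and -7.84 points after quantile normalization. PMPCA and CHCHD4 changed by -9.59 and -8.59 points after quantile normalization. TOMM20 went from 99.99% to 94.9% ± 0.242 of its pair, and MTX1 from 48.4% ± 1.24 to 43.0% ± 1.2 (SD, n = 3 each). In TIMM17A with TIMM17B, TIMM8A with TIMM8B, TIMM10 with TIMM10B and GRPEL1 with GRPEL2 the groups overlapped as deposited, and MTX2 was the whole of its pair with MTX3 in all libraries. A further 6 pairs were chosen after their values were seen and carry no test.

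The order of import transcripts by level was much alike at the top. Expressed per gene length, TOMM5, TOMM6, TIMM8B, TIMM17B and TOMM20 were the 5 highest in control, in that order, and TOMM6, TOMM5, TOMM20, TIMM13 and TIMM17B were the 5 highest in MT-treated blastocysts. In the control group TIMM17B and TOMM20, at 351 ± 3.62 and 344 ± 4.83 TPM (SD, n = 3 each), overlapped, as did TOMM20 and TIMM13 after MT, at 375 ± 4.05 and 369 ± 4.99 TPM (SD, n = 3 each). Over tested import genes with a mean of at least 10 TPM in the group, replicates had a median coefficient of variation of 1.75% in control and 2.30% after MT. Among these genes, TIMM22, TIMM29 and TIMM10B varied most in the MT-treated group, with coefficients of variation of 11.2%, 11.7% and 11.2%.

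Proteins that work with the import machinery were examined as 4 lists with 42 genes, of which 41 were matched by symbol and 40 tested. Of these, 21 were higher (52.5%, against 61.6% of all genes tested), 15 were lower (37.5%, against 34.1%) and 4 were not called. Among 8 matrix chaperones and motor partners, 2 were higher (25.0%) and 6 lower (75.0%), against 36.4% and 55.6% of the genes that reached 1 TPM in every library (3 and 4 after median centring, 2 and 6 after quantile normalization), with a median log2 fold change of -0.67. All 8 reached that level in every library, and the median over all such genes was -0.27. DNAJC19 and DNAJC15, J-domain proteins of the motor, rose from 122.9 ± 2.55 to 181.5 ± 6.04 TPM and from 49.8 ± 2.69 to 70.9 ± 1.80 TPM (SD, n = 3 each). TRAP1, a mitochondrial HSP90, had 22.6, 23.4 and 25.3 TPM in control and 1.22, 1.35 and 1.21 TPM after MT, 18.9-fold lower in the MT-treated group (log2 fold change -3.45, SE 0.05, adjusted p = 7.16e-09 by limma). HSCB, a J-domain protein of iron-sulfur cluster assembly, was 2.74-fold lower.

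HSPA9, the motor chaperone whose cycle is served by GRPEL1, DNAJC19 and TIMM44, was named after its values were seen. It had 209, 210.3 and 208 TPM in control and 96.3, 95.7 and 96.6 TPM after MT, 2.17-fold lower (log2 fold change -1.11, SE 0.02, adjusted p = 4.12e-09 by limma). HSPA9, TIMM44, GRPEL1 and GRPEL2 were all lower under each scaling, whereas DNAJC19 and DNAJC15 were higher under each.

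Among 14 peptidases and proteases of imported proteins, 6 were higher (42.9%, against 61.6% of all genes tested), 5 were lower (35.7%, against 34.1%) and 3 were not called (10 higher and 4 lower after median centring, 7 and 7 after quantile normalization), with a median log2 fold change of 0.07 against 1.12 over all genes tested. Of the 6 rises, 3 were in genes listed at 0 in control. YME1L1, a protease that faces the intermembrane space, was listed at 0 in each control library and had 28.3, 27.2 and 28.3 TPM after MT. XPNPEP3, an aminopeptidase that trims new amino termini, was also at 0 in control and had 26.3, 23.5 and 25.1 TPM. PITRM1, which degrades cleaved presequences, fell 6.62-fold, from 9.64 ± 0.437 to 1.46 ± 0.117 TPM, and SPG7, a subunit of the matrix-facing protease, fell 3.61-fold, from 21.2 ± 0.612 to 5.89 ± 0.191 TPM (SD, n = 3 each). Among 7 tested genes of the MICOS complex and its partners, which shape the cristae, 5 were higher (71.4%, against 61.6% of all genes tested), 1 was lower (14.3%, against 34.1%) and 1 was not called (6 higher and 1 lower under both other scalings), with a median of 0.13 against 1.12 over all genes tested. APOOL and CHCHD6, listed at 0 in control, made up 2 of the 5 rises. APOO, a MICOS subunit, had 4.64, 4.76 and 4.27 TPM in control and 139, 141 and 146 TPM after MT, 31.1-fold higher (log2 fold change 4.68, SE 0.04, adjusted p = 1.02e-09 by limma). APOOL, its paralog, was at 0 in control and had 21.9, 23.6 and 22.1 TPM after MT, while DNAJC11, which binds the complex, fell 1.58-fold, from 38.5 ± 1.71 to 24.4 ± 0.781 TPM (SD, n = 3 each).

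Of 12 other insertion, import or extraction factors, 11 were tested, and 8 were higher (72.7%, against 61.6% of all genes tested) and 3 lower (27.3%, against 34.1%; 8 and 2 after median centring, 8 and 3 after quantile normalization), with a median of 0.50 against 1.12. TIMMDC1, an assembly factor of complex I with a TIMM-like domain, was listed at 0 in all libraries. COX18, which like OXA1L inserts proteins into the inner membrane, was at 0 in each control library and had 24.3, 23.4 and 22.6 TPM after MT. BAG6, a cytosolic quality control chaperone, rose from 10.9 ± 0.593 to 28.3 ± 0.927 TPM (SD, n = 3 each). AGK, a lipid kinase that is also a TIM22 subunit, had 19.2, 19.4 and 19.7 TPM in control and 4.41, 4.74 and 3.93 TPM after MT, 4.46-fold lower in the MT-treated group (log2 fold change -1.93, SE 0.06, adjusted p = 1.93e-07 by limma). AGK and TIMM22 were thus both lower. ATAD1, which extracts misplaced proteins from the outer membrane, was 2.85-fold lower.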

How the data were processed

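Values were deposited by the authors as TPM for each gene, with 2 decimals. Per the study's methods and the submitters' processing notes, reads were checked with FastQC 0.11.9, aligned with STAR 2.7.9a and counted with featureCounts (Subread 1.6.3). The methods name the genome as ARS-UCD1.3 and the notes as ARS-UCD1.2. The library kit also differs between the methods and the labels. How counts became TPM, and whether counting used strand, are not given in the sources used here.

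Group and replicate number of each library were read from its title. TPM were transformed to log2(TPM + 1), and all genes that reached 1 TPM in 3 or more libraries were fitted together with limma 3.58.1 (lmFit, eBayes with an intensity trend) under R 4.3.3, with Benjamini-Hochberg adjustment and a threshold of 0.05. Pair shares were compared by exact permutation over libraries in Python 3.11.15. The fit was checked on simulated data in which 200 of 11953 genes were given a log2 change. It recovered 84% of changes of 0.5 in size and 95% of changes of 1, with 14 false calls. Far more genes were called in the real libraries, so the check does not cover that setting. The import genes, lists and pairs were chosen with earlier results of these data known. Every import gene is reported, and of each list up to 2 rises and 2 falls with the largest change whose groups do not overlap. Overlapping genes were taken by symbol from RefSeq on ARS-UCD2.0, where all 35 import genes matched. No coordinates are given, because that build differs from the authors'. No sequences were used here.

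Alternatives were quantile normalization, centring on the median of genes present in every library, a pseudocount of 0.1, omission of the filter, a filter at 5 TPM, eBayes without trend, a replicate block, and each of the 6 libraries left out, with the tested genes kept.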

Additional observations from a re-analysis of the deposited data

How the results depend on the processing

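A pseudocount of 0.1, omission of the filter and a minimum TPM of 5 changed no call among the 33 tested import genes. Without the filter PAM16 was tested too, and 17 import genes were called higher, PAM16 among them at under 1 TPM in every library. After median centring, 26 import genes were higher and 5 lower, the median log2 fold change was 0.59 (8412 higher, 3038 lower and a median of 1.6 over all genes tested), and 10 peptidases and proteases were higher. Directions then turned for MTX2 (0.27), PMPCA (0.16), TIMM10 (0.30), TIMM17B (0.41), TIMM8A (0.026), TIMM8B (0.086), TOMM40 (0.074) and TOMM70 (0.26). After quantile normalization, 3 import genes were lower by at least 2-fold, the median was 0.15 (0.56 over all genes tested), the summed TPM of the small TIM chaperones was 56.5 higher and that of the SAM complex 30.6 higher, the shares of TIMM17A, GRPEL1 and TIMM8A in their pairs were 2.63, 5.45 and 0.946 points higher, and directions turned for MTX2 (0.072), TIMM17B (0.10), TOMM34 (-0.95) and TOMM70 (0.071). The turns after centring follow from the shift of -0.48 that it removes, and the cause of those after quantile normalization was not tested. Without the variance trend the call of TIMM17B was lost. The summed differences of all import genes (992 TPM), the TIM22 complex (-29.3), the TIM23 complex and motor (251), the processing peptidase (35.3) and the disulfide relay (-19.9) moved by over 1.5 times after quantile normalization and kept their direction. Leaving out 1 library gave 16 to 17 higher and 13 to 14 lower import genes and a median of 0.075 to 0.13, lowest without control replicate 2. The share difference of TIMM10 in its pair with TIMM10B moved between -0.638 and 0.209 points, and that of GRPEL1 with GRPEL2 between -0.455 and -0.176 points. Without MT-treated replicate 3, the summed difference of the SAM complex was -0.682 TPM in place of -3.95. The share difference of TIMM8A was then -0.137 points in place of -0.818. Same-numbered libraries of both groups did not deviate together (r between -0.01 and 0.06 over the tested genes), and, although the methods describe treatments run side by side within each production run, the sources do not say which run a library number stands for. With a replicate block, 16 import genes were higher and 14 lower, and no call changed. TPM holds no depth, so the counting error of values under 1 TPM and of listings at 0 cannot be given.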
